A study of Bos taurus with 18 samples.

Results

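The ADAMTS genes encode secreted zinc proteases with thrombospondin repeats, and 10 of them (ADAMTS1, ADAMTS2, ADAMTS3, ADAMTS4, ADAMTS5, ADAMTS7, ADAMTS9, ADAMTS12, ADAMTS14 and ADAMTS15) were read by gene symbol from the 16989 genes counted in each library. RNA came from Bos taurus bone marrow derived mesenchymal stem cells (MSCs) of 1 juvenile donor, as 17 clones (A to Q), each grown from a single cell, and 1 mixed, heterogeneous population (Het). All 18 cultures were undifferentiated cells in monolayer on plastic at passage 1, in serum-containing basal medium without chondrogenic induction, and no culture carried a genetic change. The study asked whether expression in such naive clones foretells the cartilage-like matrix they later form. Each culture was sequenced once, so a clone has no replicate library, and p-values here measure only the spread between these libraries.

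ADAMTS proteases act on the extracellular matrix, many of them after a proprotein convertase such as furin removes their propeptide. ADAMTS4 and ADAMTS5 are the main aggrecanases, which cut the core protein of aggrecan, the large proteoglycan of cartilage, and ADAMTS1, ADAMTS9 and ADAMTS15 can cut aggrecan or versican as well. ADAMTS2, ADAMTS3 and ADAMTS14 remove the amino-terminal propeptides of fibrillar procollagens, and ADAMTS7 and ADAMTS12 form a pair known for cleaving cartilage oligomeric matrix protein. TIMP3 is their best known tissue inhibitor, and the receptor LRP1 takes ADAMTS4 and ADAMTS5 up from outside the cell.

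Reads on genes numbered 11484812 to 18458157 per library, and levels are given as CPM, the reads of a gene per 1000000 reads on genes after TMM scaling of the 18 libraries. Where no read was counted, a level of up to 3 reads, or 0.169 to 0.271 CPM, remains possible, and such limits and all counting intervals cover counting error only. Under the annotation used by the authors some abundant genes had few reads, with GAPDH at 1 to 12 reads per library and VCAN (versican) at 0 to 1, so a low count is not read as absence. The stromal markers ENG, NT5E and THY1 had at least 1535, 3212 and 2820 reads in every clone, as the MSC label requires. Of the endothelial markers, CDH5 had 0 reads in every library and KDR at most 1 read in a clone. VWF, PECAM1 and TEK had 9 to 93, 3 to 41 and 3 to 33 reads per clone. Clones C and O were the most similar pair, with a chi-square of 5.09 per gene over 10346 genes against a median of 128 over the 136 pairs. The next pair, E and F, had 23.4. Clones C and O thus differed by more than counting error, which cannot show whether they arose from separate cells. They were kept as separate samples, as labelled.

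Of the 10 proteases, 9 were measured and 1, ADAMTS15, had a single read in clone N and 0 reads in the other libraries. All 9 varied between clones by more than counting error (chi-square test of Poisson homogeneity with Benjamini-Hochberg adjustment), but so did 97.5% of all genes tested. The SD of log2(CPM + 0.25) over the 17 clones had a median of 0.32 over the 11477 genes above 1 CPM in at least 1 clone and was above that median for each of the 9. It was 1.48 for ADAMTS1, 1.15 for ADAMTS9 and 0.44 for ADAMTS2. Levels are compared between clones and not between genes, because gene lengths were not used here.

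**Figure D1:**
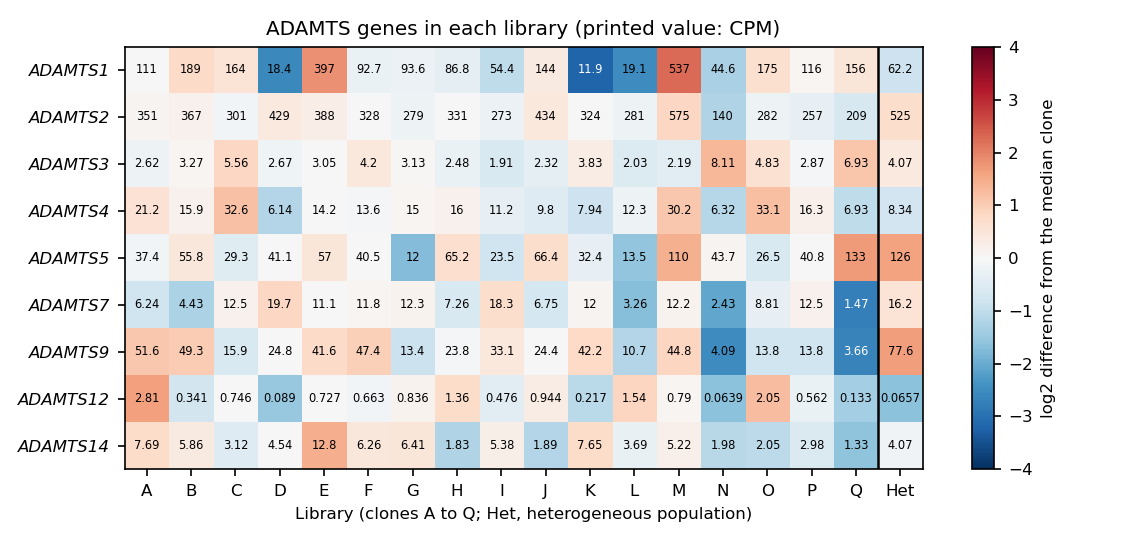
Level of each ADAMTS gene in each library, drawn as log2(CPM + 0.25) relative to the median of the 17 clones for that gene, with clones A to Q and the heterogeneous population (Het) as columns. ADAMTS1 runs from 11.9 CPM in clone K to 537 CPM in clone M, and clones N and Q are low for ADAMTS9 and ADAMTS7 but high for ADAMTS3.

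Among the aggrecanases, ADAMTS4 ran from 6.14 CPM in clone D (69 reads) through a median of 14.2 to 33.1 CPM in clone O (549 reads), a 5.39-fold range. Clones O, C and M formed the top at 33.1, 32.6 and 30.2 CPM, with clone A next at 21.2. Clones D, N, Q and K lay at the bottom, between 6.14 and 7.94 CPM. Of the 16 pairs of neighbours in this order, 14 did not differ beyond counting error, so the order within the top and within the bottom is not resolved.

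ADAMTS5 spread further, from 12 CPM in clone G (172 reads) through a median of 40.8 to 133 CPM in clone Q (2002 reads), an 11.1-fold range with an SD of 0.91. Clones Q and M (110 CPM) stood above the rest, the next being clone J at 66.4 CPM and clone H at 65.2. Clones G and L (13.5 CPM) were lowest. The 2 aggrecanases did not share an order over the clones: clone Q was highest for ADAMTS5 and among the lowest for ADAMTS4 (6.93 CPM), whereas clones C and O, at the top for ADAMTS4, had 29.3 and 26.5 CPM of ADAMTS5. Their correlation was near 0 (Pearson r = -0.108, n = 17 clones).

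ADAMTS1, which cuts aggrecan and versican and is known as an inflammation- and hormone-responsive member, varied strongly. It ran from 11.9 CPM in clone K (165 reads) through a median of 111 to 537 CPM in clone M (8838 reads), a 45.1-fold range, and its SD exceeded that of 98.8% of genes. Clone M was followed by clone E at 397 CPM, and the third, clone B, was at 189. Clones K, D (18.4 CPM) and L (19.1 CPM) lay well below the next clone, N, at 44.6 CPM.

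ADAMTS9, a versican- and aggrecan-cutting protease, ran from 3.66 CPM in clone Q (55 reads) through a median of 24.4 to 51.6 CPM in clone A (570 reads), a 14.1-fold range. A group of 6 clones, A, B, F, M, K and E, lay between 41.6 and 51.6 CPM. Clones Q and N (4.09 CPM) stood apart at the bottom, with the next clone, L, at 10.7 CPM. Its SD exceeded that of 95.6% of genes.

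Of the procollagen N-proteinases, ADAMTS2 was the steadiest, from 140 CPM in clone N (2199 reads) through a median of 324 to 575 CPM in clone M (9464 reads), a 4.09-fold range. Leaving aside clones N, Q (209 CPM) and M, the remaining clones lay between 257 and 434 CPM. ADAMTS3, which also processes the lymphatic growth factor VEGF-C, ran from 1.91 CPM in clone I (28 reads) through a median of 3.05 to 8.11 CPM in clone N (127 reads). Clones N, Q, C and O, at 8.11, 6.93, 5.56 and 4.83 CPM, were its highest. With so few reads, none of its 16 neighbour pairs differed beyond counting error. ADAMTS14 ran from 1.33 CPM in clone Q (20 reads) through a median of 4.54 to 12.8 CPM in clone E (176 reads), and clone E stood above the next clones, A at 7.69 and K at 7.65 CPM.

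ADAMTS7 ran from 1.47 CPM in clone Q (22 reads) through a median of 11.1 to 19.7 CPM in clone D (221 reads), a 13.4-fold range. Clones Q, N (2.43 CPM) and L (3.26 CPM) were lowest, and clones D and I (18.3 CPM) highest. Its relative ADAMTS12 was barely detected, with 1 to 34 reads per clone and a median of 0.727 CPM. Clones A (2.81 CPM) and O (2.05 CPM) were highest and clones N and D had 1 read each, so no fold is given. The SD of ADAMTS12 was 0.94 with a pseudocount of 0.25, 0.52 with a pseudocount of 1 and 1.32 with one of 0.05.

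**Figure D2:**
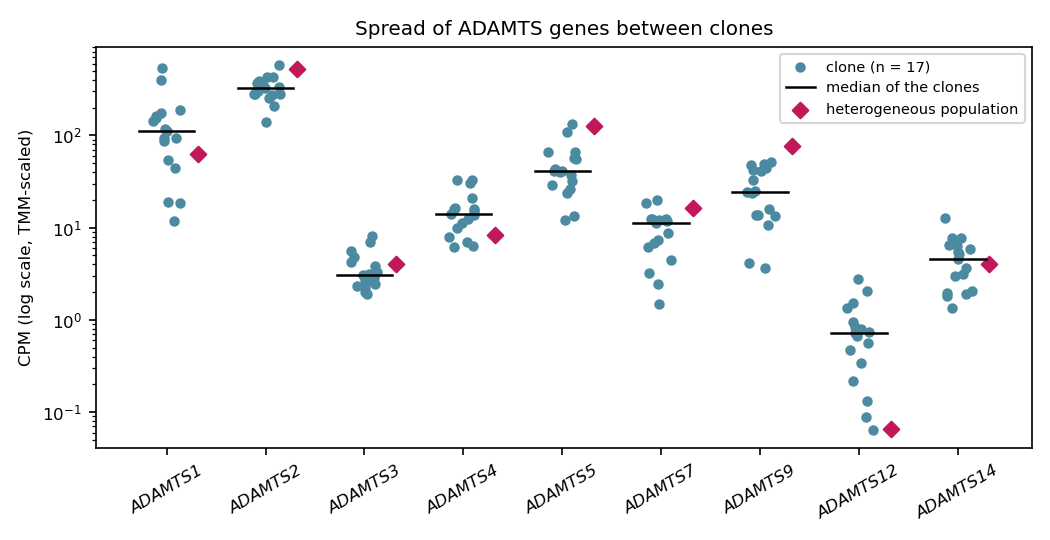
CPM of each of the 9 measured ADAMTS genes on a log scale, with each clone as a point and the heterogeneous population marked separately. The clones of ADAMTS1 span 45.1-fold and those of ADAMTS2 span 4.09-fold, and ADAMTS9 is the gene whose heterogeneous library (77.6 CPM) lies above every clone.

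No clone was highest or lowest throughout. Clone M was highest for ADAMTS1 and ADAMTS2, and clone A for ADAMTS9 and ADAMTS12. Clone Q was highest for ADAMTS5 and lowest for ADAMTS7, ADAMTS9 and ADAMTS14, while clone N was highest for ADAMTS3 and lowest for ADAMTS2. For ADAMTS12, clones N and D shared the lowest count, 1 read each. Whether such single clones stood apart was tested by fitting each clone against the other 16 with edgeR's quasi-likelihood test. In simulated counts for such a fit, that test found 12% of changes of log2 1 and 73.5% of those of log2 2. Differences near log2 1 therefore mostly go uncalled. Of the calls of DESeq2's Wald test, an alternative, 21.8% to 31.8% were false there, against 2% to 7.69% for edgeR. The changed genes of the simulation were drawn from all genes, whereas the ADAMTS genes spread more between clones than the median gene. The rates found are therefore not those of the ADAMTS genes. For these, larger differences also went uncalled, such as ADAMTS1 in clone K at log2 -3.66 (SE 1.65). Over the 17 fits 0.046% of all tests were called at an adjusted p of 0.05, 88 of the 92 calls falling in clone N (0.748% of its tests) and 4 in clone M (0.034%), and 0 of the 153 tests of ADAMTS genes were called. Of these 153, 11 (7.19%) had an unadjusted p under 0.05, against 4.4% of all tests. The smallest was that of ADAMTS2 in clone N, at log2 -1.23 (SE 0.40, adjusted p = 0.143 by edgeR), and DESeq2's Wald test called it (log2 -1.25, adjusted p = 0.0273) and no other ADAMTS gene. In clone N edgeR called 2 genes of the pathway lists, both higher: ADAMTSL3, an ADAMTS-like protein without a protease domain (log2 3.76, adjusted p = 0.0375), and SERPINE2, a protease inhibitor of the matrix (log2 2.35, adjusted p = 0.0351).

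The heterogeneous population was then set against the 17 clones. In it 1.23% of the 11878 genes tested were called by edgeR, 145 higher and 1 lower, and 0 of the 9 ADAMTS genes, by edgeR, by DESeq2 or by limma. None of the 9 had an unadjusted p under 0.05, against 7.7% of all genes. This single library was assumed to vary as the clones do. In simulated counts for this fit, edgeR found 15% of changes of log2 1 and 74.5% of those of log2 2. Those changed genes were again drawn from all genes, and the ADAMTS genes spread more between clones than the median gene. The SE of their log2 differences ran from 0.40 (ADAMTS2) to 1.89 (ADAMTS12). The lack of calls therefore says little about differences near log2 1, and for most of these genes little about larger ones. The median log2 difference was 0.16 over the 9 ADAMTS genes and -0.03 over all genes tested.

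ADAMTS9 had 77.6 CPM (1181 reads) in the heterogeneous library, above every clone (highest 51.6 CPM), at log2 1.53 (SE 0.84, adjusted p = 0.682 by edgeR). Lying above every clone was itself common, at 9.69% of genes. ADAMTS5 had 126 CPM there and ADAMTS2 525 CPM, each above 16 of the 17 clones, at log2 1.37 (SE 0.74, adjusted p = 0.679) and log2 0.69 (SE 0.40, adjusted p = 0.694). On the other side, ADAMTS4 at 8.34 CPM lay below 13 of the clones and ADAMTS1 at 62.2 CPM below 12, at log2 -0.92 (SE 0.81, adjusted p = 0.792) and log2 -1.19 (SE 1.47, adjusted p = 0.849). ADAMTS12 had 1 read in the heterogeneous library, 0.0657 CPM with a 95% counting interval (exact Poisson) of 0.00166 to 0.366 CPM, which overlaps the values of the lowest clones. The other 3, ADAMTS3, ADAMTS7 and ADAMTS14, had 4.07, 16.2 and 4.07 CPM, within the range of the clones.

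Markers of another cell type were high in that library. Of 8 macrophage markers 7 were detected and all 7 were called higher, with a summed level of 828 CPM against 1.94 to 20.2 CPM in the clones, and MARCO was at 0 everywhere. The 4 detected of 5 endothelial markers summed to 13 CPM against 1.69 to 8.43, but 11.2 of these were VWF, PECAM1 had 0.263 CPM, within the range of the clones, KDR and CDH5 had 0 reads, and 0 of the 3 tested were called. Of the 828 CPM of macrophage markers, 690 were MMP9, which had up to 15.5 CPM in the clones, though each of the 7 detected lay above every clone. The part of the macrophage-marker signal in the ADAMTS levels of the heterogeneous library was not tested, and in bulk RNA fewer cells of a type and less RNA per cell cannot be told apart. Apart from the macrophage markers, 0 genes of the pathway and marker lists were called there: TIMP3 had 1150 CPM (log2 -1.18, SE 0.62, adjusted p = 0.670 by edgeR) and LRP1 had 10300 CPM, above every clone (log2 0.85, SE 0.28, adjusted p = 0.339).

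The substrates themselves varied between clones, so each gene was fitted with a slope on aggrecan (ACAN) over the 17 clones. ACAN ran from 18.4 CPM in clone H through a median of 130 to 2670 CPM in clone N, with clones N, O, Q and C between 1200 and 2670 CPM. Of the 9 proteases edgeR called 2, neither of them a main aggrecanase: ADAMTS3 was higher where ACAN was higher and ADAMTS9 was lower. Among all genes 5.37% were called, 3.2% higher and 2.17% lower. The median slope was -0.12 over the 9 and 0.01 over all genes tested.

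For each doubling of ACAN, ADAMTS3 was higher by 0.23 log2 units (SE 0.05, adjusted p = 0.0101 by edgeR). The 4 clones richest in ACAN, N, O, Q and C, were also the 4 highest for ADAMTS3, from 4.83 to 8.11 CPM against 1.91 to 4.2 CPM in the other 13 (Pearson r = 0.752, Spearman rho = 0.596, r = 0.627 without clones N and O). For ADAMTS9 the slope was -0.41 (SE 0.10, adjusted p = 0.0209 by edgeR), and those 4 clones had 3.66 to 15.9 CPM (r = -0.748, rho = -0.600, r = -0.663 without N and O). Clones L, G and P overlapped them, at 10.7, 13.4 and 13.8 CPM. For ADAMTS3 the 95% counting interval of clone O (3.83 to 6.01 CPM) overlapped that of clone F (3.18 to 5.44 CPM). Clones C and O, the most similar pair of libraries, entered the slopes as separate clones and were not left out together. Without clone N neither gene was called (ADAMTS3 0.19, adjusted p = 0.0654, and ADAMTS9 -0.35, adjusted p = 0.0866). Neither was called with COL1A1 as a second term (ADAMTS3 0.24, adjusted p = 0.178, and ADAMTS9 -0.17, adjusted p = 0.473), a term added after the data were seen, and ADAMTS9 was not called with the proliferation marker MKI67 as a second term (-0.34, adjusted p = 0.0553).

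**Figure D3:**
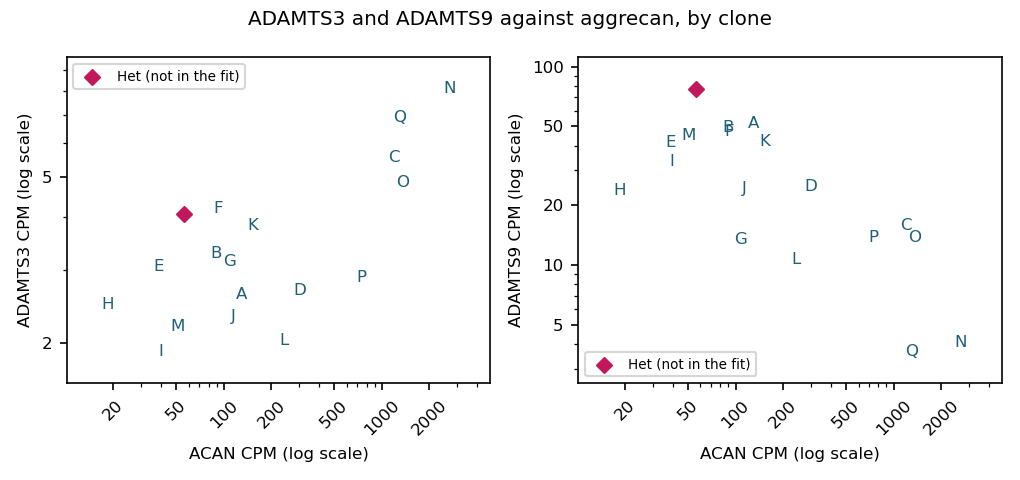
ADAMTS3 (left) and ADAMTS9 (right) CPM against ACAN CPM, each letter being a clone and the diamond the heterogeneous population, which was not in the fit, with both axes on a log scale. Clones N, Q, C and O lie at the right, highest for ADAMTS3 (4.83 to 8.11 CPM) and at 3.66 to 15.9 CPM for ADAMTS9.

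The main aggrecanases had slopes on ACAN close to 0, at 0.02 for ADAMTS4 (SE 0.08, adjusted p = 0.893 by edgeR) and -0.01 for ADAMTS5 (SE 0.09, adjusted p = 0.964, or 0.0093 without TMM scaling), and neither sign was stable. Among the 4 clones richest in ACAN, ADAMTS4 was low in N (6.32 CPM) and Q (6.93 CPM) and high in O (33.1 CPM) and C (32.6 CPM). ADAMTS1 had a slope of -0.16 (adjusted p = 0.534). ADAMTS2 (-0.13, SE 0.04, adjusted p = 0.0735) and ADAMTS14 (-0.28, SE 0.09, adjusted p = 0.0749) missed the threshold, and both were called by DESeq2 and without clone H. In simulated counts with slopes of 0.25 on ACAN, 14.6% of DESeq2's calls were false, against 4.57% for edgeR.

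Of the pathway genes, edgeR called 1 of 4 tested ADAMTS-like proteins with ACAN, ADAMTSL3 (0.62 per doubling, adjusted p = 0.00475). Among 6 cofactors and anchors 2 were higher, the heparan sulfate proteoglycan SDC4 (0.22, adjusted p = 0.0149), a known partner of ADAMTS proteases, and fibronectin, listed as FN1 (0.21, adjusted p = 0.0456). COL2A1, the cartilage procollagen (0.73, adjusted p = 0.00845), and SOX9, the cartilage transcription factor (0.29, adjusted p = 0.0381), were higher too. PCOLCE, an enhancer of procollagen C-proteinase (-0.28, adjusted p = 0.0176), and PDGFRB, a stromal receptor (-0.15, adjusted p = 0.0191), were lower. By contrast 0 of 6 inhibitors and clearance genes, 0 of 4 proprotein convertases and 0 of 3 tested other ADAMTS proteases were called. Slopes of pathway genes are given for the main fit only. Of all genes, that fit called 603, against 261 without clone N and 37 with COL1A1 as a second term.

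The same fit was made on COL1A1, which encodes a chain of type I procollagen, a substrate of the N-proteinases. COL1A1 ran from 13400 CPM in clone N through a median of 56200 to 103000 CPM in clone F. Here edgeR called 3 of the 9 proteases, ADAMTS2, ADAMTS14 and ADAMTS9, all higher with COL1A1. Of all genes 20% were called, 9.89% higher and 10.1% lower. The median slope was 0.49 over the 9 and -0.02 over all genes tested, or -0.16 over all genes without TMM scaling.

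ADAMTS2 was higher by 0.49 log2 units per doubling of COL1A1 (SE 0.09, adjusted p = 0.00150 by edgeR). Clone N was lowest for both genes (r = 0.822, rho = 0.770, r = 0.710 without clones N and L, n = 17). ADAMTS14 had a slope of 0.74 (SE 0.22, adjusted p = 0.0220; r = 0.612), with clone E high for both and clone J, at 1.89 CPM with 72800 CPM of COL1A1, away from the trend. The third N-proteinase, ADAMTS3, had a negative slope that did not pass the test (-0.41, SE 0.16, adjusted p = 0.0827), and passed it without TMM scaling (-0.60, adjusted p = 0.0209) and without clone L (-0.49, adjusted p = 0.0387).

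ADAMTS9, which is no procollagen N-proteinase, had the steepest slope of the 3 called, at 1.27 (SE 0.20, adjusted p = 0.000439 by edgeR; r = 0.833, rho = 0.855, r = 0.771 without clones N and L). The 6 clones highest for ADAMTS9 had 71800 to 103000 CPM of COL1A1, and clone N, lowest for COL1A1, had 4.09 CPM of ADAMTS9. Clone Q, lowest for ADAMTS9, had 44500 CPM of COL1A1 and fell below the trend. ACAN and COL1A1 were themselves inversely related (r = -0.641, n = 17). With ACAN as a second term, added after the data were seen, ADAMTS2 (adjusted p = 0.0361) and ADAMTS9 (adjusted p = 0.0169) were still called and ADAMTS14 was not (0.50, adjusted p = 0.315), and ADAMTS14 was not called without clone E either (0.62, adjusted p = 0.0605). The heterogeneous library, outside this fit, had more COL1A1 (114000 CPM) and more ADAMTS9 than any clone.

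**Figure D4:**
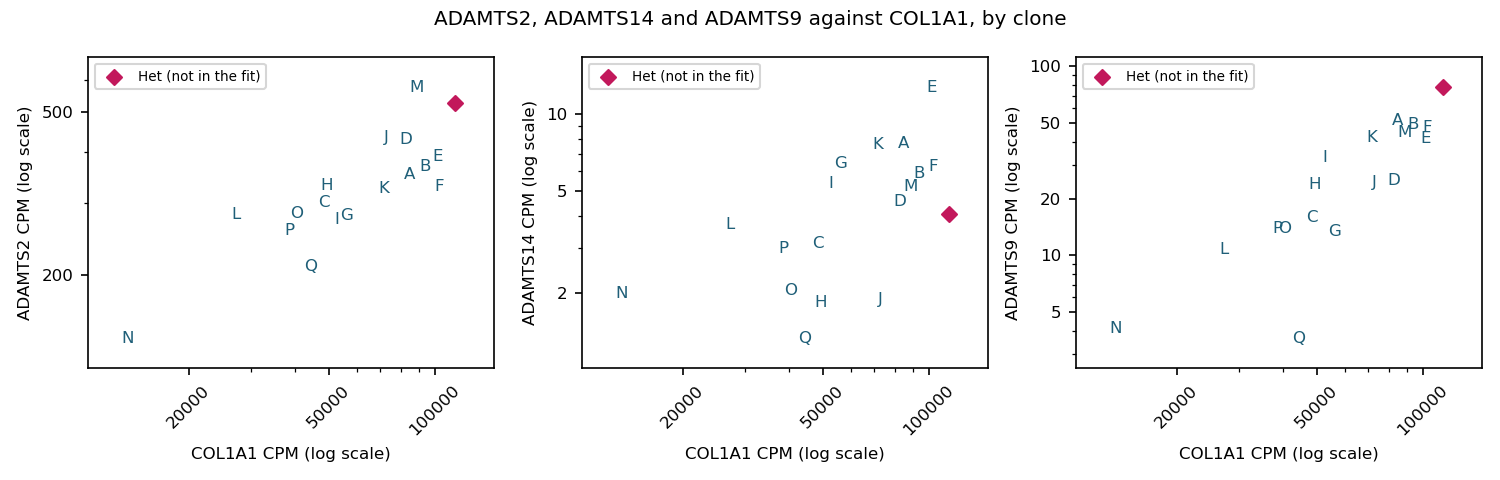
ADAMTS2, ADAMTS14 and ADAMTS9 CPM against COL1A1 CPM, each letter being a clone and the diamond the heterogeneous population, which was not in the fit, with all axes on a log scale. All 3 genes are higher where COL1A1 is higher (slopes 0.49, 0.74 and 1.27), and clone Q lies low for each.

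The remaining proteases had slopes on COL1A1 that did not pass the test: ADAMTS1 0.86 (SE 0.40, adjusted p = 0.134 by edgeR), ADAMTS7 0.62 (SE 0.31, adjusted p = 0.161), ADAMTS5 0.22 (adjusted p = 0.599), ADAMTS4 0.16 (adjusted p = 0.707) and ADAMTS12 0.12 (adjusted p = 0.885, or -0.0617 without TMM scaling). Of 8 tested genes of procollagen substrates and other collagen processing, 4 were higher with COL1A1 and 1 was lower. The higher ones included COL1A2 (0.73, adjusted p = 0.000138), COL3A1 (1.0, adjusted p = 0.00235) and COL5A1 (0.59, adjusted p = 0.00394), which encode substrates of the N-proteinases. Of the processing genes PCOLCE was higher (0.69, adjusted p = 0.0433) and PCOLCE2 was lower (-0.50, adjusted p = 0.0137). BMP1, the procollagen C-proteinase, did not pass the test (0.17, adjusted p = 0.379).

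Of the 6 cofactors and anchors, 3 were higher with COL1A1 and 2 lower. SDC1 (0.76, adjusted p = 0.000138) and the matrix proteins FBLN2 (1.70, adjusted p = 0.000467) and FBLN1 (1.82, adjusted p = 0.0450) were higher. SDC4 (-0.74, adjusted p = 0.000242) and SERPINE2 (-0.82, adjusted p = 0.00191) were lower, so that the syndecans SDC1 and SDC4 moved in opposite directions. The convertase PCSK6 (1.49, adjusted p = 0.00219) was the 1 of 4 called, and ADAMTS10, a microfibril-associated protease, the 1 of 4 tested other ADAMTS proteases (0.29, adjusted p = 0.0216). ADAMTSL3 was lower (-1.62, adjusted p = 0.000709), the reverse of its slope on ACAN. Clone N, lowest for COL1A1 and highest for ACAN, had 675 ADAMTSL3 reads against a median of 35 over the clones. It thus entered both slopes, ACAN and COL1A1 were inversely related, and no ADAMTSL3 slope without clone N is given. No inhibitor or clearance gene was called, 0 of 6, with TIMP3 at -0.01 (SE 0.16, adjusted p = 0.975) and LRP1 at 0.21 (SE 0.08, adjusted p = 0.0730).

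How the proteases moved together over the 17 clones is given as a description, since the points share libraries and depth. Of 36 pairs, 25 had a positive Pearson r, 7 were above 0.5 and 2 below -0.5, with a median of 0.163. ADAMTS9 had r = 0.779 for ADAMTS2 (0.686 to 0.808 when each clone was left out) and r = 0.721 for ADAMTS14 (0.643 to 0.774). Its r of 0.605 with ADAMTS7 rested on few clones, since rho was 0.223. ADAMTS4 went with ADAMTS12 (r = 0.714, rho = 0.667) and with ADAMTS1 (r = 0.614, rho = 0.620).

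ADAMTS3 ran against ADAMTS2 (r = -0.672, rho = -0.407) and, less stably, against ADAMTS9 (r = -0.608, rho = -0.299, and r = -0.105 without the 2 clones farthest in ADAMTS3). ADAMTS2 and ADAMTS3 share the N-proteinase role. ADAMTS2 and ADAMTS14 had r = 0.426. ADAMTS1 and ADAMTS5 lie next to each other, with 0 protein-coding genes between them in the RefSeq table of assembly ARS-UCD2.0, which is not the assembly of the counts, and had r = 0.496 (rho = 0.424). Clone M was high for both neighbours, whereas clone E was high for ADAMTS1 (397 CPM) with 57.0 CPM of ADAMTS5, and clone G was low for ADAMTS5 with 93.6 CPM of ADAMTS1.

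**Figure D5:**
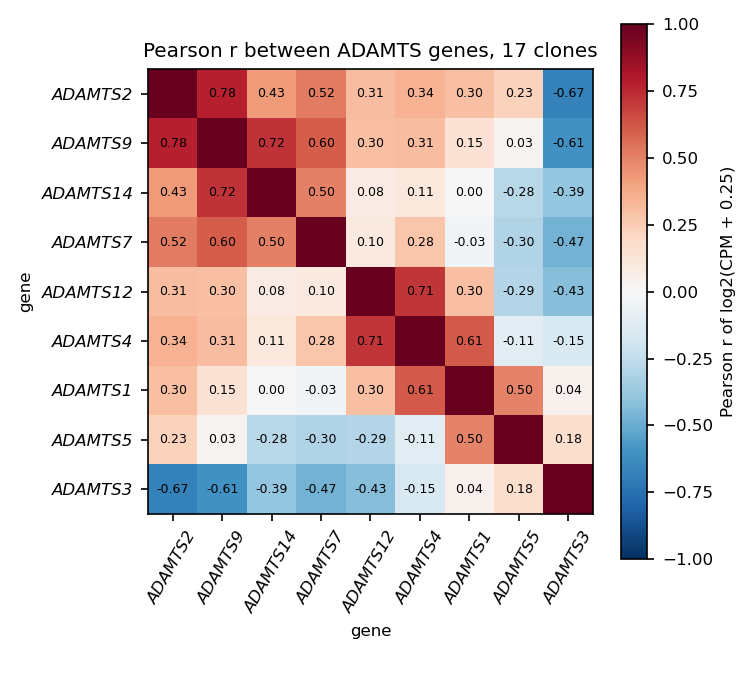
Pearson r of log2(CPM + 0.25) over the 17 clones for each of the 36 pairs of the 9 measured ADAMTS genes. ADAMTS9 goes with ADAMTS2 (0.779) and ADAMTS14 (0.721), ADAMTS4 with ADAMTS12 (0.714), and ADAMTS3 runs against ADAMTS2 (-0.672).

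Within the pathway lists, the closest relations were chosen after the values were seen. ADAMTS4 varied with BMP1 (r = 0.929, rho = 0.833) and with FURIN (r = 0.727, rho = 0.696), the convertase that activates it, and ran against its inhibitor TIMP3 (r = -0.776, rho = -0.691). Clones C and O, the most similar pair, were highest for ADAMTS4 and also high for FURIN (log2 1.51 and 1.61, each against the other clones). No r without both is given. ADAMTS5 had r = 0.216 with TIMP3 and -0.493 with FURIN, so the aggrecanases differed in sign for both genes. ADAMTS1 went with the cytokine IL6 (r = 0.711, rho = 0.762). ADAMTS9 went with SDC1 (r = 0.846) and against SDC4 (r = -0.915, rho = -0.914).

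Among all genes above 1 CPM in at least 1 clone, the 3 with the highest r were listed for each protease over the 17 clones. For ADAMTS9 they were PALLD (r = 0.938), an actin-binding protein, HEY2 (0.923), a Notch target, and NXN (0.921). For ADAMTS2 they were CSDA (0.928), ROR2 (0.923), a receptor for WNT5A, and GANAB (0.900), a glucosidase of the endoplasmic reticulum. For ADAMTS1 they were DERL3 (0.928), a factor of protein degradation from the endoplasmic reticulum, PTGFRN (0.860) and RASSF4 (0.826).

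For ADAMTS4, BMP1 was the closest of all genes (0.929), followed by RCOR2 (0.916) and EDEM1 (0.914). For ADAMTS5 they were KIAA1161 (0.928), BNIP3L (0.902), a mitophagy receptor, and ING4 (0.882). For ADAMTS14 they were PCP4L1 (0.915), INPPL1 (0.858) and C7H19orf71 (0.856). For ADAMTS3 they were MST4 (0.892), GRAMD1C (0.840) and GATA4 (0.831). ADAMTS7 had HEATR6 (0.812), PARM1 (0.811) and AIFM2 (0.771). ADAMTS12 had GLI1 (0.863), a target of hedgehog signalling, CALM3 (0.859) and SND1 (0.858).

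The rest of the ADAMTS family split into measured and barely counted genes. ADAMTS10 had 656 to 1354 reads per clone and 1277 in the heterogeneous library, and ADAMTS6 had 122 to 760 and 148. ADAMTS20 had 1 to 91 reads and ADAMTS17 0 to 24, with 43 and 30 in the heterogeneous library. ADAMTS8, ADAMTS13, ADAMTS16, ADAMTS18 and ADAMTS19 had at most 5 reads in any library. Of the ADAMTS-like genes ADAMTSL4 had 1364 to 3994 reads per clone, and ADAMTSL3 ran from 9 to 675 reads, the highest in clone N.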

How the data were processed

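The authors aligned single-end reads of poly-adenylated RNA to bosTau7 with STAR 2.3.0e and used HTSeq to count reads over the RefSeq gene annotation. The deposited values are raw counts per gene, 1 library per culture, without normalization. The 5 tally lines of each file, with 18.8% to 26.8% of reads outside genes and 0.164% to 0.192% ambiguous, stayed out of library sizes and tests.

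The members and gene lists were chosen with earlier results of these data known. Named genes are the 10 members, the 3 genes with the highest r for each, and list genes that were called (at most 5 per list). Any further gene was picked with its values in view, to give undetected genes or levels of inhibitors and receptors. Counts were tested with edgeR 4.0.16 under R 4.3.3 (filterByExpr, TMM, then glmQLFit with glmQLFTest), using Benjamini-Hochberg adjustment over all genes tested and a threshold of 0.05. ACAN and COL1A1 entered slopes as log2(CPM + 0.25). The counting-error test used genes with a mean of at least 5 reads. SD and r used TMM over the 17 clones. DESeq2 1.42.0 and limma 3.58.1 were alternatives, beside other scalings, filters and pseudocounts, second terms, and each clone left out. The scripts were tested on simulated data. Levels, SD and correlations came from pandas 2.3.3 and numpy 2.4.6, the counting-error test from scipy 1.17.1, and plots from matplotlib 3.10.9, under Python 3.11.15. All 10 symbols matched the RefSeq gene table of ARS-UCD2.0, from which gene order alone was taken. Gene lengths, sequences and the later matrix assay were not used here.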

Additional observations from a re-analysis of the deposited data

How the results depend on the processing

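In the heterogeneous library, DESeq2 called 88 genes against 146 by edgeR, and no alternative called an ADAMTS gene. For single clones DESeq2 called 407 genes against 92, among them 1 ADAMTS test against 0, and adjustment over all genes and clones left 10. On ACAN, 603 genes were called by edgeR, 1049 by DESeq2, 37 with COL1A1 as a second term, and 261 to 1167 with 1 clone left out. The lowest was without clone N and the highest without H, with 360 without E, 386 without P and 364 without Q. On COL1A1, 2304 genes were called and 869 with ACAN as a second term. Both second terms were added after the data were seen. Without TMM, calls on COL1A1 split into 510 higher and 2811 lower, against 1138 and 1166, and calls on ACAN into 517 and 168, against 359 and 244. The cause was not tested. Of the ADAMTS values, 21 changed sign under an alternative, 0 of them called in either fit. The heterogeneous difference of ADAMTS14 was 0.0215 by limma. The slope on ACAN was -0.0354 by limma and -0.0399 with MKI67 for ADAMTS4. For ADAMTS5 it was 0.0093 without TMM, 0.0528 with MKI67 and 0.0721 with COL1A1, and for ADAMTS1 it was 0.1216 with COL1A1. With 1 clone left out it ran from -0.0502 to 0.0785 for ADAMTS4 and from -0.134 to 0.0371 for ADAMTS5. The slope on COL1A1 was -0.2173 with MKI67 for ADAMTS5 and 0.0394 with ACAN for ADAMTS3. For ADAMTS12 it was -0.0617 without TMM, -0.0582 with the heterogeneous library added and -0.0324 with ACAN. With 1 clone left out it ran from -0.1265 to 0.3058 for ADAMTS4 and from -0.358 to 0.4435 for ADAMTS12. The planned slope on VCAN was not run, since no library had more than 1 read. No paired analysis was possible because the labels give each culture a letter and no shared replicate number. Depth limits ADAMTS3, ADAMTS12 and ADAMTS14 most, and a single library per clone leaves differences between clones without replicate error.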
